A study of Mus musculus with 24 samples.

Results

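The Hox genes encode homeodomain transcription factors that give cells of the embryo their position along the body axis, and they were taken here as the protein-coding genes of GENCODE vM21 whose symbol is Hoxa, Hoxb, Hoxc or Hoxd followed by a digit. This rule found 39 genes among the 21755 protein-coding genes on chromosomes 1 to 19 and X, with 11 in the HoxA cluster, 10 in HoxB, 9 in HoxC and 9 in HoxD. The data were lists of peaks of H3K9ac, an acetyl mark on lysine 9 of histone H3 found at active promoters and enhancers, from the mouse mammary carcinoma line 4T1 grown as spheroids. All 4 groups were of 3 libraries each, and all spheroids were collected on day 5. The control group carried a scramble guide, described in the study's methods as directed against EGFP, and its medium held 75 µM palmitate. CPT1a knockout and KAT2a knockout cells were grown with the same palmitate. The remaining group was CPT1a knockout cells in medium with 5 mM acetate, for which the labels do not say whether palmitate was also present. The study's legend for its H3K9ac correlation has palmitate present both with and without acetate. Other legends of the study give the medium as holding palmitate or acetate. The acetate group may therefore differ from the others in palmitate too. CPT1a is the enzyme that lets long-chain fatty acids enter mitochondria, and KAT2a is a histone acetyltransferase. The knockout lines were made with a doxycycline-inducible Cas9 and lentiviral guides under puromycin selection, and the guide behind each library is not named. The comparisons asked whether loss of either enzyme altered H3K9ac, and whether acetate altered it in cells without CPT1a. No label says that replicates were separate cultures, so p-values measure only the spread between these libraries, which may be technical.

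In each cluster the genes lie in the order in which they act along the body axis, with the paralog groups of low number at one end and those of high number at the other. The clusters are textbook targets of the Polycomb group, which keeps them silent, and of the trithorax group, which keeps them active. In adult epithelia each cell type keeps a part of the clusters active according to its position in the body, and Hox genes are known to take part in mammary gland development.

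A promoter was called in a library if a peak lay within 1 kb of a transcription start site (TSS) that the annotation gives for the gene. The strongest promoter peak of each gene, by fold enrichment over local background, was placed among the 10777 genes called in all 12 libraries as a rank percentile within its library, in which 100 is the highest. Ranks were used because fold enrichments were not scaled between libraries. The lists held 16212 to 34370 peaks and called 50.3% to 53.6% of all promoters. The calling depth, meaning the mean fragment coverage at which a list was called, was recovered from the lists and ran from 0.554 to 2.52. The scramble libraries stood apart, with 29176 to 34370 peaks of a median width of 585 to 686 bp against 16212 to 24639 peaks of 816 to 1147 bp in the other 9, so a property of these preparations and the scramble genotype cannot be told apart. Of the marker genes of other cell types, all 4 leukocyte and all 3 endothelial genes were without a promoter peak in every library, 1 of 3 fibroblast genes (Pdgfra) was called in 12 of 12, and all 6 epithelial genes were called in 12 of 12. A peak list does not tell a mark that is weaker in every cell from one that is present in fewer cells.

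The 39 promoters fell almost entirely into an acetylated and an unacetylated set. In all 12 libraries 12 promoters were called, which is 30.8% of the Hox genes against 49.5% of all protein-coding genes. Among them were Hoxa2, Hoxa3, Hoxa4, Hoxa5, Hoxa6, Hoxa7, Hoxa9 and Hoxa10, then Hoxc6, and Hoxd3 with Hoxd4. No library called 26 promoters, or 66.7% of the Hox genes against 45.1% of all genes. These were Hoxa11, all 10 HoxB genes (Hoxb1 to Hoxb9 and Hoxb13), 8 HoxC genes (Hoxc4, Hoxc5 and Hoxc8 to Hoxc13) and 7 HoxD genes (Hoxd1 and Hoxd8 to Hoxd13). Hoxa13 alone was called in some libraries, 5 of the 12. Thus 9 of 11 HoxA promoters, 0 of 10 in HoxB, 1 of 9 in HoxC and 2 of 9 in HoxD carried H3K9ac throughout. The 26 uncalled promoters stayed at 26 with a window of 500 bp or of 2 kb, with stricter peaks and at equal calling depth. The 12 called throughout became 11 with the window of 500 bp, without Hoxa9. At equal calling depth they were 10, without Hoxd3 and Hoxd4. With the peak summit required inside the window only 4 were left, namely Hoxa7, Hoxc6, Hoxd3 and Hoxd4. Under that rule 44.5% of all genes were called throughout.

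**Figure D1:**
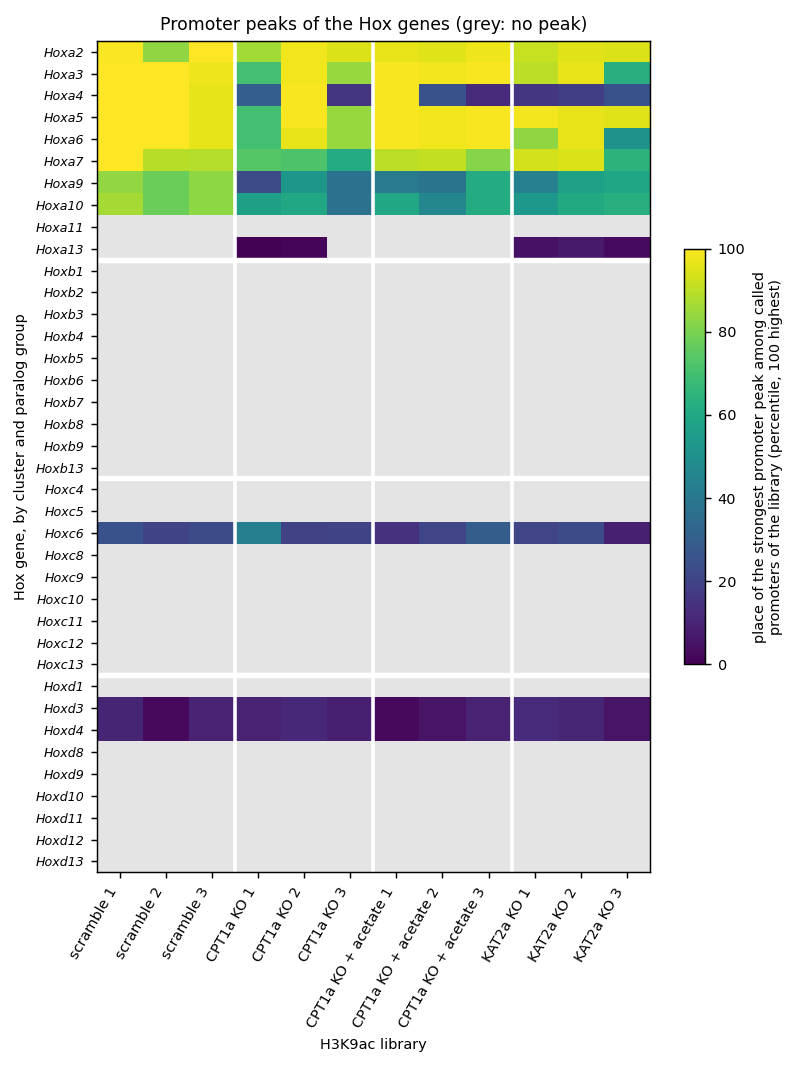
Promoter peaks of Hox genes (vertical axis, by cluster and paralog group) in the 12 H3K9ac libraries (horizontal axis, KO for knockout). Colour gives the place of the strongest promoter peak among all promoters called in the same library, as a percentile from 0 to 100, and grey marks no peak. The HoxA rows from Hoxa2 to Hoxa10 are filled in all 12 columns, the 10 HoxB rows are grey in all of them, and Hoxa13 is filled in 5.

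Called and uncalled Hox promoters were close in base composition. Over the windows of 1 kb on each side of the 5′ ends, the 12 called members had a median GC content of 54.3% and a CpG observed-to-expected ratio of 0.552, and the 26 uncalled ones had 56.8% and 0.611. Of the 2140 other genes whose GC content and CpG ratio lay between the quartiles of the uncalled Hox promoters, 72.7% were called in all 12 libraries and 21.8% in none. Promoters on either side of the HoxA border and at both exceptions inside it are shown here as the 200 bases (GRCm38) before the 5′ end of the gene, written along its strand, with CpG dinucleotides in capitals.
Hoxa10, chr6:52240855-52241054, minus strand: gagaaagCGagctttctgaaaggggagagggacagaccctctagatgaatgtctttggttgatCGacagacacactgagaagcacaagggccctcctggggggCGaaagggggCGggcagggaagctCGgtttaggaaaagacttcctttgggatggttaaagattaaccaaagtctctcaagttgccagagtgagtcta
Hoxa11, chr6:52245811-52246010, minus strand: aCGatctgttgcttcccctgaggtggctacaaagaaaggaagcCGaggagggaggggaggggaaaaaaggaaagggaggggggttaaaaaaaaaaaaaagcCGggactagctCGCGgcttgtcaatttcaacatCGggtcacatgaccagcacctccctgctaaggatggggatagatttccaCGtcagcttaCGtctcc
Hoxa4, chr6:52191754-52191953, minus strand: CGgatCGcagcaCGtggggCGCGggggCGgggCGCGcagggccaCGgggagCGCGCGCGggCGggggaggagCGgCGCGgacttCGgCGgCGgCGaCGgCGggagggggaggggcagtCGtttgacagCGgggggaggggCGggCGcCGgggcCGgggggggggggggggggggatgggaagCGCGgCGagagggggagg
Hoxa13, chr6:52260881-52261080, minus strand: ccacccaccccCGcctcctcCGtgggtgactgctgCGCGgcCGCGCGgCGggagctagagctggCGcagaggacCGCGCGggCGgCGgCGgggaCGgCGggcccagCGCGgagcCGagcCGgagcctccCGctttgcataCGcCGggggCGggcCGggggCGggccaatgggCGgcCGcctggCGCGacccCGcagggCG
Hoxa10 was called in 12 libraries with 5 CpG in this stretch, and Hoxa11 was called in none with 8. The stretches before Hoxa4 and Hoxa13 held 32 and 33 CpG, the most of all 39 members, and a GC content of 84.5% and 82.5%. In neither of these was the mark spread over the start in most libraries. The Hoxa10 start shared this, lying under a peak in only 4 libraries.

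HoxA carried one of the longest runs of H3K9ac in the genome. The cluster (chr6:52155590-52260880, GRCm38, all genes on the minus strand), is 105.291 kb long. Peaks covered 73.6, 64.9 and 68.8 kb of it in the scramble libraries, 61.4, 63.3 and 54.4 kb in CPT1a knockout, 62.7, 58.9 and 63.9 kb with acetate and 63.1, 64.2 and 60.015 kb in KAT2a knockout. That is 51.6% to 69.9% of the cluster, where peaks covered 0.742% to 1.76% of the whole genome. Among 263154 windows of the same length placed every 10 kb outside the cluster, none held as much in 11 libraries, and 3 held as much in scramble replicate 1. The widest peak of the cluster was among the 10 widest of its list in every library, and it was the widest of all in scramble replicate 1 at 32898 bp and in CPT1a knockout replicate 2 at 28734 bp. Both of those peaks covered the promoter of Hoxa2.

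**Figure D2:**
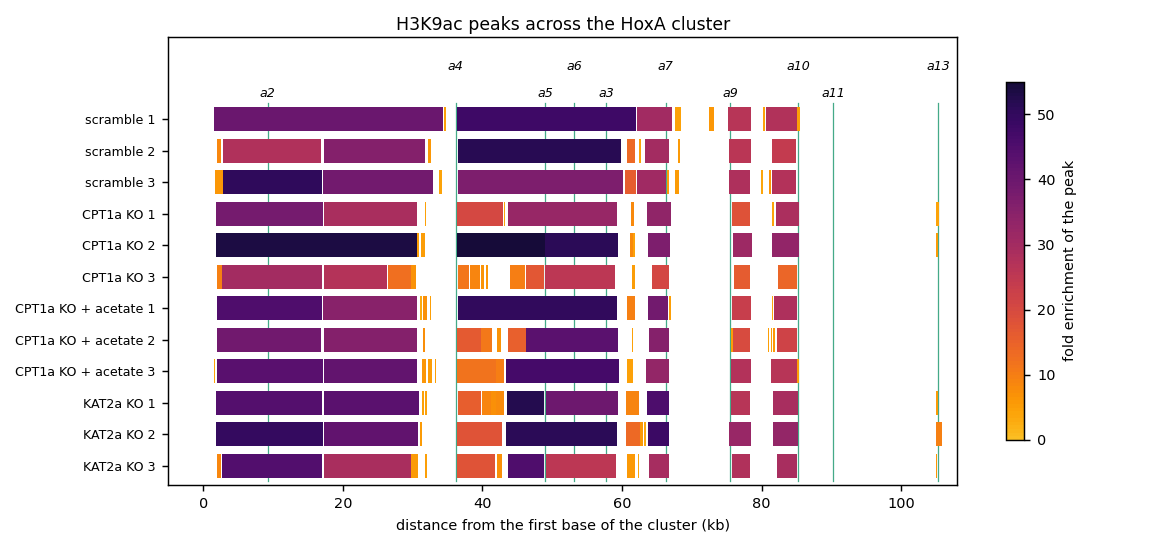
H3K9ac peaks across HoxA in the 12 libraries (rows), by distance from the first base of the cluster in kb. Each bar is 1 deposited peak coloured by its fold enrichment, and green lines mark the 5′ ends of the genes. Peaks fill most of the stretch up to Hoxa10 in every library, stop there, and return only as small peaks at Hoxa13 in 5 libraries.

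The mark ended at the same place in every library. Of the 76.024 kb between the 5′ ends of Hoxa2 and Hoxa10, 61.0% lay under a peak in all 12 libraries and 12.9% in none. Of the 20.0 kb between the 5′ ends of Hoxa10 and Hoxa13, 0% lay under a peak in all 12 and 97.1% in none. The last peak before Hoxa11 ended 4752 to 5283 bp short of its 5′ end in the 12 libraries. Hoxa10 and Hoxa11 both belong to the AbdB-like class of Hox genes, which act in the rear of the body, so the border ran inside that class. Within the acetylated part, the stretch between the 5′ ends of Hoxa6 and Hoxa3 was covered whole in every library, and that between Hoxa7 and Hoxa9 was covered for only 4.34% to 29.3% of its 9.23 kb.

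The start of Hoxa4 sat in a gap. A stretch of 1584 bp that holds the 5′ end of Hoxa4 (chr6:52190363-52191946) was under no peak in any library, although a peak began 194 to 339 bp upstream of that 5′ end in all 12. The CpG-rich letters printed above for Hoxa4 lie almost wholly in this gap. Hoxa4 therefore counts as called through a peak beside its start and not over it. By contrast, the first start of Hoxa3 lay under a peak in 12 of 12 libraries.

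Not every call was at the start of the protein-coding transcript. With only the starts of transcripts in the CCDS set, which are those with an agreed coding sequence, 9 members had a peak within 1 kb in all 12 libraries. Hoxa9 was called through an upstream start of a noncoding transcript, and its CCDS start had a peak within 1 kb in 1 library. Hoxc6 and Hoxd4 were likewise called through upstream noncoding transcripts, and their CCDS starts had no peak in any library. H3K9ac around Hoxa9 is therefore a measure of the stretch between Hoxa9 and Hoxa10, and in 4 libraries the strongest peak of both genes was the same.

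Outside HoxA, peaks were small and few. HoxC (chr15:102921103-103036852) held 0.991 to 1.80 kb of peaks, all at Hoxc6. HoxD (chr2:74668310-74765142) held 0.500 to 3.00 kb in 1 to 5 peaks, and in 12 of 12 libraries 1 of them lay at the start that Hoxd3 and Hoxd4 share, their annotated TSSs being 2 bases apart. In 8 libraries HoxD also held peaks at least 2 kb from that start, downstream of it in 7 and upstream, before Hoxd12, in 4, and in scramble replicates 2 and 3 the strongest HoxD peak was one of these. In HoxB (chr11:96194316-96368256) the only peaks were 2 of 237 and 250 bp in acetate replicate 3, at fold enrichments of 4.22 and 4.54, and neither was within 1 kb of a HoxB start. No HoxB peak remained at equal calling depth. The HoxB paralogs of acetylated HoxA genes, among them Hoxb4, Hoxb5 and Hoxb7, thus had no promoter peak.

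The 200 bases before the 5′ ends of Hoxc6 and Hoxd3 (GRCm38, along the strand of the gene, CpG dinucleotides in capitals) are shown because these were the acetylated starts of HoxC and HoxD.
Hoxc6, chr15:102998057-102998256, plus strand: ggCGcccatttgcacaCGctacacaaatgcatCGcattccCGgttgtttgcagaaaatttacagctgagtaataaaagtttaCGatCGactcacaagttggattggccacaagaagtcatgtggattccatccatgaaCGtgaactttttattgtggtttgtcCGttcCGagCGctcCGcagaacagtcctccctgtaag
Hoxd3, chr2:74711727-74711926, plus strand: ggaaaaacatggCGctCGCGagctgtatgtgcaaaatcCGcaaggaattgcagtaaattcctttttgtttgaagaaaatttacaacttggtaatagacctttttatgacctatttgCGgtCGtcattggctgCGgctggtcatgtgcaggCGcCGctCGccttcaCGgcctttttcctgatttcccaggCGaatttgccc
They held 11 and 12 CpG at a GC content of 46.5% and 47.5%, where the stretch before Hoxa4 had 32 CpG. A peak lay over the Hoxd3 start in 11 libraries, while the Hoxc6 peak began 187 to 497 bp downstream. The motif TGATNNAT, looked for on both strands, the form to which Pbx and Hox proteins can bind together, was in 8.85% of the 32851 RefSeq promoters of 300 bases (GRCm38.p6) and in 4 of the 24 that belong to Hox genes (16.7%), namely those of Hoxa2, Hoxb1, Hoxb8 and Hoxd11. Of these only Hoxa2 was called.

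Ranks by fold enrichment differed widely between clusters. The 9 HoxA promoters called throughout had a median of mean ranks of 88.9, against 51.8 over all genes called throughout, while Hoxc6 had a mean rank of 18.5 and the start of Hoxd3 and Hoxd4 one of 4.14. Their median peak width was 15161.5 bp in HoxA, 1422 bp at Hoxc6 and 1326.5 bp at Hoxd3, against 2125.5 bp over all genes. Because a wide peak covers several HoxA starts, the values of neighbouring members often come from 1 peak and are not independent.

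Hoxa5, a regulator of mammary epithelial differentiation, had the highest mean rank of the cluster. It ranked at 99.9, 99.9 and 96.1 in scramble, at 68.3, 98.8 and 84.2 in CPT1a knockout, at 98.9, 97.8 and 98.9 with acetate and at 98.0, 96.4 and 94.8 in KAT2a knockout. The lowest of the 12 values were those of CPT1a knockout replicates 1 and 3, and the groups overlapped. Hoxc6 ranked at 21.2, 17.2 and 20.5 in scramble, at 39.9, 13.9 and 19.2 in CPT1a knockout, at 10.1, 18.3 and 25.1 with acetate and at 15.3, 17.2 and 4.06 in KAT2a knockout. The KAT2a knockout values of Hoxc6 lay just below those of scramble, the nearest values of both rounding to 17.2, and the other groups overlapped with scramble. The shared start of Hoxd3 and Hoxd4 ranked at 6.13, 0.909 and 7.02 in scramble, 4.80, 5.18 and 7.34 in CPT1a knockout, 0.325, 2.29 and 4.22 with acetate and 5.89, 4.18 and 1.39 in KAT2a knockout. These ranks are among the lowest of all called promoters in every library, and the 3 acetate values lay below the 3 values of CPT1a knockout. At equal calling depth the Hoxd3 start was not called in scramble replicate 2. Of the members not given by library, Hoxa2, which acts in the hindbrain, ranked at 82.8 to 99.7, Hoxa3, which patterns the pharyngeal arches, at 60.3 to 99.9, and the trunk genes Hoxa6 and Hoxa7 at 47.9 to 99.9 and 60.9 to 99.9.

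In CPT1a knockout, Hoxa9 was the 1 Hox promoter that fell in rank past the threshold. Hoxa9, a regulator of blood stem cells and of limb and axial patterning, ranked at 83.1, 76.6 and 82.4 in scramble and at 18.6, 49.5 and 36.4 in CPT1a knockout. The groups did not overlap. The difference of means was -45.8 percentile points (SE 10.95, limma with Benjamini-Hochberg adjustment over 10777 genes, adjusted p = 0.0187, lower in 3 of 3 libraries). This was the 1 member called lower of 12 tested, and 0 were called higher. The background of this comparison was 5.24% of all genes lower and 4.77% higher, so 1 of 12 is near the background. Hoxa10, which patterns the uterus and limb, ranked at 85.7, 76.6 and 82.4 in scramble and at 54.4, 57.1 and 36.4 in CPT1a knockout, again without overlap. Its difference of -32.3 did not pass (limma, adjusted p = 0.0503). Over the 12 members 9 differences were negative, and the median was -15.3 against 0.217 over all genes. The limma call at Hoxa9 was lost without scramble replicate 1 (adjusted p = 0.0574), without scramble replicate 3 (adjusted p = 0.0600) and without CPT1a knockout replicate 1 (adjusted p = 0.0581).

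At Hoxa9 and Hoxa10 the acetate means lay between those of scramble and CPT1a knockout. With acetate, Hoxa9 ranked at 38.3, 36.3 and 59.0 and Hoxa10 at 57.5, 44.5 and 59.0, which overlapped with CPT1a knockout and lay below all scramble values. Against CPT1a knockout no member passed in either direction (limma, smallest adjusted p = 0.516), where the background was 0.0278% of genes higher and 0.0186% lower. At an unadjusted p under 0.05, 2 of 12 members and 981 of 10777 genes differed, the members being Hoxa5 by 14.8 and Hoxa7 by 19.1 percentile points, both higher with acetate. The median over members was 4.05 against -0.481 over all genes. Against scramble, no member passed with acetate either (background 1.66% higher and 3.9% lower), and 3 of 12 members and 2369 of 10777 genes had an unadjusted p under 0.05. The nearest was Hoxa9, at -36.2 (limma, adjusted p = 0.0666). The medians were -2.10 over members and 0.148 over all genes.

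**Figure D3:**
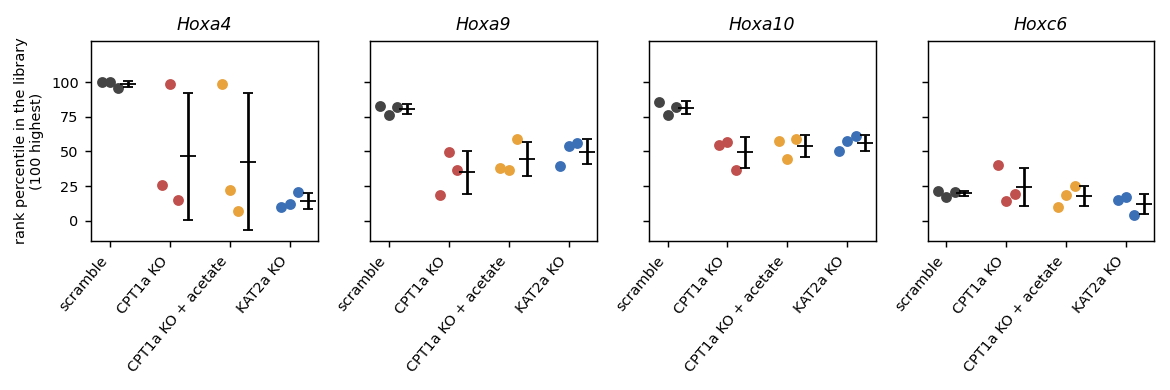
Rank percentile within the library (vertical axis, 100 highest) of the strongest promoter peak of Hoxa4, Hoxa9, Hoxa10 and Hoxc6 in the 4 groups. Points are single libraries, and the bar beside them gives the mean ± SD (n = 3). Scramble lies above all other libraries for Hoxa9 and Hoxa10, and the Hoxa4 values lie at 96.1 or above in 5 libraries and at 25.7 or below in 7.

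In KAT2a knockout the largest fall was at Hoxa4. Hoxa4, a gene of the middle group that acts in the neck and upper trunk, ranked at 99.9, 99.9 and 96.1 in scramble and at 9.89, 12.2 and 20.7 in KAT2a knockout. The groups did not overlap, and the difference was -84.4 (SE 21.8, limma, adjusted p = 0.0426, lower in 3 of 3 libraries). No other member passed in this comparison, whose background was 2.71% of genes lower and 1.7% higher. Hoxa9 ranked at 39.5, 53.9 and 56.4 and Hoxa10 at 50.1, 57.7 and 60.9, all below scramble, with differences of -30.8 and -25.4 that did not pass (limma, adjusted p = 0.125 and 0.157). All 12 differences were negative, with a median of -8.37 against 0.104 over all genes. The call at Hoxa4 was lost without any one of 7 libraries, namely each scramble library (adjusted p = 0.117, 0.0886 and 0.101 for replicates 1 to 3), each KAT2a knockout library (0.113, 0.102 and 0.0876) and CPT1a knockout with acetate replicate 2 (0.0573). It was also lost with the replicate number as a block in the fit.

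The rank of Hoxa4 went with whether its strongest peak was also that of Hoxa5. In the 3 scramble libraries, in CPT1a knockout replicate 2 and in acetate replicate 1, the strongest peak at the Hoxa4 promoter was the same as at Hoxa5, 12581 to 25603 bp wide, with its summit 11.8 to 19.2 kb from the Hoxa4 start. Hoxa4 ranked at 96.1 to 99.9 in these 5. In the other 7 libraries a separate peak of 1596 to 6505 bp lay upstream of Hoxa4, with its summit 0.673 to 3.21 kb away, and Hoxa4 ranked at 6.68 to 25.7. CPT1a knockout thus gave 25.7, 98.8 and 14.7, and acetate 98.9, 22.4 and 6.68. Both groups were split, and neither differed from scramble past the threshold (limma, adjusted p = 0.137 and 0.146). When peaks within 500 bp of each other were merged, the KAT2a knockout difference was -55.0 and did not pass (limma, adjusted p = 0.213). Whether the level at the Hoxa4 start itself changed was not tested, since a list gives 1 value per peak.

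The widest peaks at Hoxa5 and Hoxa6 were narrower in both knockouts than in scramble, in CPT1a knockout beside a background in which a like share of all genes was narrower. Among the strongest peaks at Hoxa3, Hoxa4, Hoxa5 and Hoxa6, there were 1, 1 and 2 distinct ones in scramble, 2, 3 and 2 in CPT1a knockout, 1, 2 and 2 with acetate and 4, 2 and 4 in KAT2a knockout. The widest peak at Hoxa6 measured 25603, 23421 and 23662 bp in scramble, 15626, 10478 and 10059 bp in CPT1a knockout, 22814, 13125 and 16165 bp with acetate and 10303, 15921 and 10056 bp in KAT2a knockout. All scramble peaks were wider than all others at this gene. In CPT1a knockout the log2 width was lower by limma at Hoxa6 (-1.04, adjusted p = 0.0117), Hoxa5 (-0.95, adjusted p = 0.0150) and Hoxa4 (-2.25, adjusted p = 0.0345). These 3 of 12 members stand beside a background of 26.5% of genes narrower and 1.12% wider, and the median log2 difference was -0.28 over members and -0.39 over all genes. In KAT2a knockout Hoxa5 and Hoxa6 passed at -1.03 each (limma, adjusted p = 0.0429 and 0.0444), against 3.17% of genes narrower and 0.761% wider, with medians of -0.32 and -0.17. When peaks within 500 bp were merged, the 3 calls in CPT1a knockout were lost. The differences were then -0.51 at Hoxa5 and Hoxa6 (limma, adjusted p = 0.0506) and -1.10 at Hoxa4 (adjusted p = 0.164). Hoxa7, Hoxa9, Hoxd3 and Hoxd4 passed instead, 4 of 12 members where 7932 of 10777 genes passed. In KAT2a knockout 3 of 12 members passed with merged peaks, where 4879 of 10777 genes passed. Hoxa5 and Hoxa6 were among them at -0.67 (limma, adjusted p = 0.0253).

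No member passed the test of width with acetate. Against scramble the background was 7.05% narrower and 0.594% wider, and 2 of 12 members and 3139 of 10777 genes had an unadjusted p under 0.05. Against CPT1a knockout, limma called 0.0% of genes in either direction, and 0 members and 221 genes had an unadjusted p under 0.05. Some width calls rested on single libraries. In CPT1a knockout, that of Hoxa4 was lost without any scramble library (limma, adjusted p = 0.0910, 0.0611 and 0.0699), without CPT1a knockout replicate 1 (0.0504) or replicate 3 (0.156), and that of Hoxa5 without CPT1a knockout replicate 3 (0.0556). Those of KAT2a knockout were lost in 9 of 12 fits with 1 library left out, the 3 that kept a call being those without scramble replicate 2, CPT1a knockout replicate 3 or acetate replicate 2. Both KAT2a knockout calls were also lost with the replicate number as a block.

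**Figure D4:**
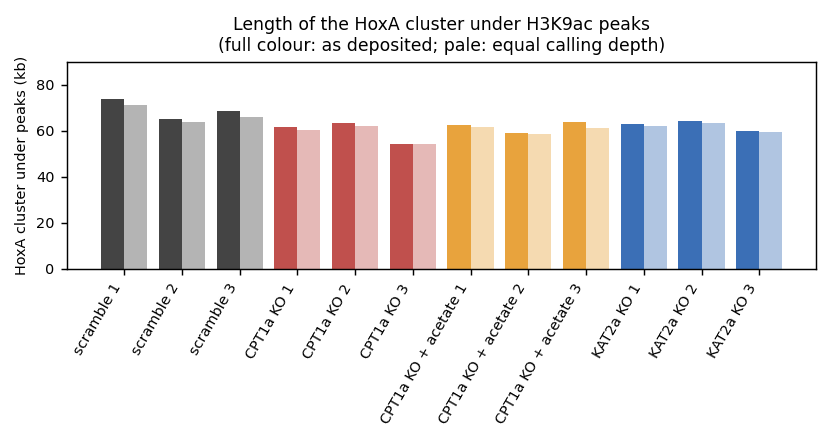
Length of HoxA under H3K9ac peaks in kb (vertical axis, from 0) in each of the 12 libraries. Full colour shows the lists as deposited and pale colour the lists brought to an equal calling depth of 0.55. The scramble libraries hold 64.9 to 73.6 kb as deposited and the other 9 hold 54.4 to 64.2 kb.

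The covered length of HoxA was also highest in scramble. HoxA was covered for 69.1 ± 4.36 kb in scramble, 59.7 ± 4.69 kb in CPT1a knockout, 61.8 ± 2.62 kb with acetate and 62.4 ± 2.15 kb in KAT2a knockout (SD, n = 3 each), and the scramble values lay above all others. At equal calling depth the means were 67.0, 58.9, 60.5 and 61.5 kb. Over the whole genome, peaks as deposited covered 1.31% to 1.76% in scramble and 0.742% to 1.34% in the other libraries. Summed over the 4 clusters, the differences from scramble were -11.012 kb in CPT1a knockout, -7.12 kb in KAT2a knockout and -8.50 kb with acetate, and acetate differed from CPT1a knockout by 2.52 kb. The last difference was smaller than the spread in CPT1a knockout and turned to -0.668 kb without CPT1a knockout replicate 3, the list of lowest depth. Since these sums move with how much was called in a library, they were not tested.

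Hoxa13, which shapes the limb tip and the urogenital tract, was the 1 member whose call differed between groups. It had a peak in KAT2a knockout replicates 1, 2 and 3 at fold enrichments of 7.11, 9.49 and 5.91, in CPT1a knockout replicates 1 and 2 at 4.08 and 5.08, and in none of the 3 scramble and 3 acetate libraries. These peaks were 277, 754 and 235 bp wide in KAT2a knockout and 346 and 200 bp in CPT1a knockout, and none stood above the percentile 7.14 among the called promoters of its library. The pattern of 3 of 3 against 0 of 3 was met in KAT2a knockout against scramble by 0.754% of all genes, most of them (152 of 164) called in KAT2a knockout only, and among Hox genes by Hoxa13 alone. The calling depth was 1.02 to 1.81 in the 5 libraries with the peak, 1.87 to 2.52 in the scramble libraries without it, 0.554 in CPT1a knockout replicate 3, and 1.45, 0.728 and 1.91 with acetate. At equal depth the peak remained in 2 of 3 KAT2a knockout libraries and in 0 of 3 of CPT1a knockout. No Hox gene met that pattern in CPT1a knockout against scramble (background 0.23%), in acetate against CPT1a knockout (0.0184%) or in acetate against scramble (0.345%). With Hoxa13, libraries called 12 or 13 Hox promoters each, and group means differed by at most 1.

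Genes that act with or upon the clusters were read from lists. Of 9 TALE genes, whose Pbx, Meis and Pknox proteins bind DNA together with Hox proteins, 7 were called in all libraries, Pknox2 in 9 and Pbx4 in 1. Against scramble, 1 TALE gene was lower in rank in CPT1a knockout, beside 5.24% of all genes, and 0 changed in KAT2a knockout. All 8 trithorax and all 21 Polycomb genes were called in 12 of 12, with 0 changes in either knockout. With acetate against scramble, Meis1 and Jarid2 were lower, while Pbx2 and Ring1 were higher (limma, adjusted p = 0.0467, 0.0287, 0.0475 and 0.0354). Of 12 Cdx, ParaHox and retinoic acid receptor genes, the receptors Rara, Rarg, Rxra and Rxrb were called in 12 of 12 and the other 8 in none, and none changed.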

How the data were processed

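ChIPmentation, in which Tn5 tags immunoprecipitated chromatin, was applied to the H3K9ac libraries, and 12 inputs were not used here. Per the labels' processing notes, the authors used FastQC, Bowtie2, SAMtools, deepTools and MACS2 with the builds mm10 and dm6, while their methods name BWA as aligner. The methods give versions for deepTools and Picard, used to remove duplicates, and those of the peak caller and aligner are not given in the sources used here. The labels and the methods give different catalogue numbers for the antibody. The authors called peaks on each library without pooling. Fold enrichment as deposited is a ratio, the pileup at a summit over its local background. The -log10 p and -log10 q in the deposited lists hold within 1 list each, and the smallest -log10 q was 2.00. The deposited score column is derived from -log10 q by the authors' caller and was not used. No read depth is given, and the calling depth was inferred from fold enrichment and -log10 p under the formulas of MACS2.

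Autosomal and X-linked peaks were kept. Ranks and log2 widths were tested over the 10777 genes called in 12 libraries with limma 3.58.1 (R 4.3.3, trend, 1 fit of 4 groups, no block) in 4 comparisons, with Benjamini-Hochberg adjustment in each and a call at an adjusted p under 0.05. Scripts were tested on simulated data. Counts over members and covered lengths have no test. Alternatives were the promoter window, summits, stricter or merged peaks, equal depth or list length, rank by -log10 p, a GC correction, other scales, a replicate block and leaving out each library. Values by library are given for members past the threshold in rank, called in some libraries, highest or lowest in rank or widest in their cluster, and for Hoxa6 and Hoxa10, which were added after their values were seen. The members and lists were chosen with earlier results of these data known. Replicate numbers did not pair the libraries, and no 2 libraries shared an identical peak (0 in every pair). Sequences are from GRCm38, and miRNAs and 300-base promoters from RefSeq (GRCm38.p6). Some items are not reported here.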

Additional observations from a re-analysis of the deposited data

How the results depend on the processing

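Counts of Hox promoters called lower in rank moved between settings. In CPT1a knockout against scramble the count was 1, and it was 0 on unscaled log2 fold enrichment. It was also 0 with summits or a window of 500 bp, under which Hoxa9 was not called throughout and so was not tested. The count was 2 with promoters called in at least 3 libraries and 3 with a window of 2 kb, a GC correction or normal scores. Shares over all genes under these settings are not given here. By -log10 p the count was 7, where 3438 of 10777 genes passed in either direction. In KAT2a knockout against scramble it was 1, and it was 0 with summits and 0 with peaks within 500 bp merged (chosen after seeing the data). By -log10 p it was 3, where 2327 of 10777 genes passed. In this comparison 1 promoter, Hoxa13, was called higher with promoters called in at least 3 libraries. With acetate against scramble the count called lower was 0. By -log10 p it was 2, where 2550 of 10777 genes passed, and it was 2 with the GC correction and 1 with normal scores. Counts of narrower peaks in CPT1a knockout were 3, then 5 with the 5′ end of the gene alone and 0 with summits, in KAT2a knockout 2 and 0 with summits, and with acetate against scramble 0 and 1 each with a 2 kb window, merged peaks or summed widths. With summits only 4 members could be tested. Differences in Hox promoters per library were 0.667, 1, -0.667 and 0 in the order CPT1a knockout and KAT2a knockout against scramble, acetate against CPT1a knockout and against scramble, and with summits 2, 3, -1.33 and 0.667. At equal depth or equal list length the last 3 were 1.33, 0 and 0.667. On unscaled log2 fold enrichment the median over all genes shifted by 0.40, 0.59, -0.03 and 0.38 in that order, and Hoxa10 and Hoxa9 in KAT2a knockout turned to 0.17 and 0.10. Apart from members that dropped out of a test, the cause of these moves was not tested.

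With 1 library left out, rank counts ran from 0 to 3 in CPT1a knockout, 0 to 1 in KAT2a knockout and 0 to 1 with acetate against scramble, and width counts from 1 to 4 and 0 to 4 in the knockouts. The covered length of acetate minus CPT1a knockout ran from -0.668 to 4.63 kb. Leaving out CPT1a knockout replicate 2 added Hoxa4 (adjusted p = 0.0299) and Hoxa5 (adjusted p = 0.0334, limma) in rank, and leaving out KAT2a knockout replicate 3 added Hoxa7 (adjusted p = 0.0320). With acetate against scramble, leaving out acetate replicate 1 added Hoxa4 (adjusted p = 0.0411) and leaving out CPT1a knockout replicate 1 added Hoxa9 (adjusted p = 0.0490). In width, Hoxa7 was added in CPT1a knockout without scramble replicate 2 (adjusted p = 0.0273), and Hoxa3 and Hoxa4 in KAT2a knockout without CPT1a knockout replicate 3 (adjusted p = 0.0471 and 0.0336). Over all genes, width calls rose from 2974 to 7932, from 424 to 4879 and from 824 to 5430 with merged peaks in CPT1a knockout, KAT2a knockout and acetate against scramble, rank calls rose from 1079 to 3438, 475 to 2327 and 599 to 2550 by -log10 p, and on unscaled log2 values to 2199, 4703 and 1406.

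Same-numbered libraries did not deviate together (correlations of -0.0618 to 0.0673 in rank and -0.245 to 0.265 in width). With the replicate number as a block, 0 members passed in KAT2a knockout in rank (Hoxa4 adjusted p = 0.0522) and 0 in width, where 41 genes in place of 424 passed, and width calls over all genes with acetate against scramble fell from 824 to 447. The member counts of the other comparisons did not move under the block.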

Other observations

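Noncoding RNAs of the clusters lay on both sides of the acetylated part. Hotairm1, an antisense RNA at the front end of HoxA, and Hoxd3os1 had a peak within 1 kb of a start in 12 of 12 libraries. Hottip and Hoxa11os at the rear end of HoxA, Halr1 beyond its front end, Hotair in HoxC, Haglr in HoxD and Hoxb3os and Hoxb5os in HoxB had one in 0 of 12. Mir196b lies inside the Hoxa9 gene record, upstream of the CCDS start of Hoxa9. It had a peak within 1 kb in 4 libraries, the nearest lying 0.647 to 1.46 kb away in the 12. For Mir10b the nearest peak was 9.83 to 13.7 kb away, for Mir196a-2 it was 25.0 to 25.3 kb and for Mir615 14.7 to 15.2 kb. Mir10a and Mir196a-1 in HoxB had no peak within 1 kb in any library. The mature 5p miRNAs are shown because those of different clusters share a seed (bases 2 to 8, in capitals). Letters are from RefSeq (GRCm38.p6).
miR-196a-5p: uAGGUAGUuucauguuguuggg
miR-196b-5p: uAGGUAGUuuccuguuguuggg
miR-10a-5p: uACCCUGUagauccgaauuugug
miR-10b-5p: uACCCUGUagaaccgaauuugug
Of these, miR-196a comes from Mir196a-1 in HoxB and Mir196a-2 in HoxC, miR-196b from HoxA, miR-10a from HoxB and miR-10b from HoxD.

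Of 24 protein-coding genes flanking the clusters, 19 were called in all libraries and 5 in none, the latter being the homeobox genes Evx1 and Evx2 and Calcoco2, Ttll6 and Skap1 around HoxB. In CPT1a knockout against scramble, Skap2, Snx10, Smug1, Cbx5 and Hnrnpa1 were lower in rank and Atp5g3 higher. These are 5 lower and 1 higher of 19 tested, beside 5.24% of all genes lower and 4.77% higher. Skap2, 143 kb before the HoxA cluster, fell from 96.2 ± 5.29 to 39.2 ± 24.7 (SD, n = 3, limma, adjusted p = 0.00686). Cbx5 and Hnrnpa1, which start next to each other, took their value from the same peak. In KAT2a knockout against scramble, Cbx3 was lower, from 98.7 ± 0.801 to 52.2 ± 13.1 (adjusted p = 0.00686, limma), and Atp5g3 and Tax1bp1 were higher. The background of this comparison was 2.71% of all genes lower and 1.7% higher. None of the 24 changed between acetate and CPT1a knockout or between acetate and scramble by limma.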
